A study of Bos taurus with 10 samples.

Results

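The major histocompatibility complex (MHC) of cattle, called BoLA, was described here by its DNA methylation in 10 tissues. Its members were all cytosines of chromosome 23 between 25 and 29 Mb of the UMD3.1 assembly, the interval taken to hold the class IIa, class III and class I genes, that had at least 8 reads in a library. There were 3998 such cytosines of 1868049 measured in the whole genome in any tissue, of which 1060 were in the CG context, 1050 in CHG and 1888 in CHH (H is A, C or T). Methylation was measured by reduced representation bisulfite sequencing (RRBS), in which DNA is cut by MspI at CCGG, converted by bisulfite and sequenced, so that an unmethylated cytosine is read as T. The samples were 1 library each of adult nucleated blood cells, adult skeletal muscle taken near a caesarean site, adult whole testes, adult uterus (intercaruncular), adult mammary gland at day 90 of lactation, and juvenile ileum, abomasum, frontal cortex and mammary gland parenchyma, with rumen from a fetus of 180 days. They came from a Hereford cow and animals related to her, the testes and the rumen were male, and nothing was treated. Tissue, animal, age and sex cannot be told apart with 1 library per tissue, no tissue has a replicate error, and the whole tissues are mixtures of cell types whose shares were not measured.

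Class II molecules of the MHC carry peptides of ingested proteins to helper T cells and are made mainly by B cells, macrophages and dendritic cells, whereas class I molecules carry peptides from inside the cell and are made by nearly all nucleated cells. The class III genes between them include complement components and cytokines of the tumour necrosis factor family. In cattle the class II genes lie in separate stretches of chromosome 23, and in the RefSeq gene order of a newer assembly BOLA-DQA2, BOLA-DQB, BOLA-DRB3 and BOLA-DRA of class IIa were followed further along the chromosome by class I genes such as BOLA-NC1. Nucleated blood cells are leukocytes and the ileum of young cattle is rich in lymphoid follicles, so these libraries were set against cortex and the other tissues. CG-dense stretches at promoters are usually unmethylated in mammals, and most other CG sites are methylated. No UMD3.1 gene annotation was used here, so sites are given by position and no site is assigned to a gene, exon or promoter, and the tissue labels could not be checked against marker genes because the files hold no expression.

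Of the CG sites, 87 were covered in all 10 tissues, which is 8.21 % of the window's CG sites against 11.3 % in the genome. A further set of 132 CG sites was covered in the 9 tissues other than abomasum and was added after the data were seen. Abomasum had the fewest reads per shared site. At the 87 shared sites the median number of reads was 13 in abomasum and 33 to 52 in the others. In the window 71.3 % of cytosines were covered in a single tissue, mainly testis (1741 of 2851) or abomasum (683). The measured CG sites were unevenly spread, with 116 in the first Mb, 66 in the second, 529 between 27 and 28 Mb and 349 in the last. Over all sites that a tissue covered, the mean CG level was 2.04 % ± 1.78 (SD over 10 tissues) from 25 to 26 Mb, 36.8 % ± 3.22 from 26 to 27 Mb, 22.3 % ± 6.46 from 27 to 28 Mb and 11.9 % ± 4.92 from 28 to 29 Mb.

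The shared CG sites lay in short clusters, each a fragment between MspI sites in most cases. A cluster was taken as at least 5 CG sites joined over gaps of up to 200 bp, and it was said to vary where the highest and lowest tissue differed by at least 25 percentage points. There were 8 clusters in all 10 tissues and 11 in the 9 tissues without abomasum. The plus-strand sequences of 5 clusters were joined from the bases deposited around each cytosine and are shown because they span the patterns found: low in blood alone, graded among tissues, methylated in every tissue and unmethylated in every tissue. Of the cluster at 26.99 Mb only the last unbroken run of 51 bases is shown, as 28 bases of its 164 bp were missing. Other measured CG of that cluster lie outside this run. Capitals mark the CG measured in the 9 tissues, and all other bases are in lower case.
Low in blood, chr23:27412775-27412824: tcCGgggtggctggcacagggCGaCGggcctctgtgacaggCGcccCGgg
Graded, chr23:27901032-27901084: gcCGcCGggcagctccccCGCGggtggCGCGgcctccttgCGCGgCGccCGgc
Graded and unevenly covered, chr23:26989351-26989401: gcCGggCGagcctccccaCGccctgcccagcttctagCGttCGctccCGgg
Methylated, chr23:27025250-27025299: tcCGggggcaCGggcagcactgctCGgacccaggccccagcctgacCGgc
Unmethylated, chr23:27219372-27219424: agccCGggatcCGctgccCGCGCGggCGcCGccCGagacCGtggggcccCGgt
All 5 stretches were rich in G and C (76.5 to 88.7 %). The ratio of CG observed to that predicted from the C and G content was 0.529 in the methylated stretch and 0.679 in the one low in blood, against 0.85 and 0.964 in the graded ones and 1.05 in the unmethylated one. In the unmethylated clusters not shown it ran from 0.810 (27.28 Mb) to 1.33 (27.49 Mb), a range that includes both graded values.

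The MHC window was less methylated than the rest of the genome in every tissue. At the 87 shared sites the mean CG level was 22.0 % in blood, 18.2 % in ileum, 17.9 % in uterus, 17.8 % in lactating mammary gland, 17.2 % in abomasum, 17.1 % in parenchyma of the mammary gland, 17.0 % in cortex, 16.1 % in skeletal muscle, 14.3 % in rumen and 10.3 % in testis. Blood stood highest and testis lowest, and the 7 tissues from ileum to skeletal muscle lay close together. The rest of the genome, at sites also covered in all 10 tissues, averaged 28.8 % over tissues. The window was lower by 12.0 percentage points on average (SD 1.15, 10 of 10 tissues, exact sign-flip permutation test over tissues, two-sided p = 0.00195, the smallest this test can give, 0.00586 adjusted over 3 tests). All 10 differences come from the same 87 sites, so this p does not measure spread between sites, regions or animals. The difference was -6.62 points against the rest of chromosome 23 and -27.6 points from the genome without the clusters at 26.99 and 27.90 Mb. Such a level was not unusual for 4 Mb of this genome: of 346 windows of that length with at least 50 shared CG sites, 158 were lower, with a median of 19.9 % (quartiles 8.77 and 39.3 %). Sites with a level below 20 % made up 72.4 % of the 87 on average, and at most 5 of the 87 exceeded 80 % in a tissue, in blood. A large low share was not particular to the window. In the rest of the genome 61.7 % (blood) to 66.3 % (testis) of sites were below 20 %, against 67.8 and 80.5 % in the window. Above 80 % were 12.1 % (testis) to 25.51 % (blood) of the sites in the rest of the genome, against 0 and 5.75 % in the window.

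**Figure D1:**
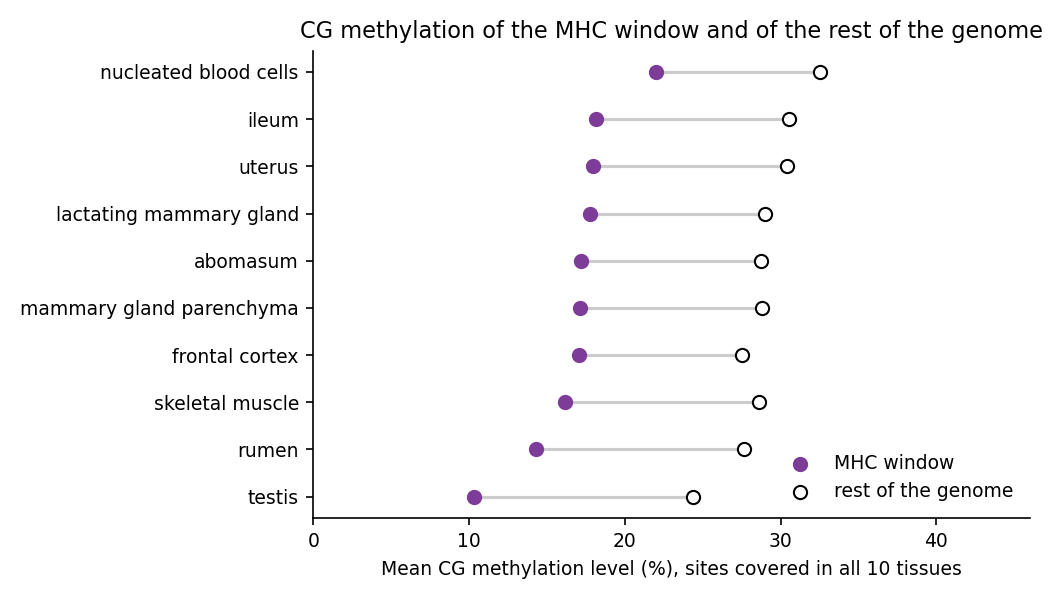
Mean CG methylation level (%, x axis) in each of the 10 tissues (1 library each) at the CG sites covered in all of them, in the MHC window (filled) and in the rest of the genome (open). The filled points run from 10.3 % in testis to 22.0 % in blood, each left of its open point.

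Blood and ileum together averaged 20.1 %, against 16.0 % in the other 8 tissues, which ranged from 10.3 to 17.9 %. The difference was 4.11 points (exact permutation test over the 45 choices of 2 tissues, two-sided p = 0.0444, the smallest possible, 0.0667 adjusted over 3 tests). Blood and ileum were also the highest tissues in the rest of the genome, and once that level was subtracted they exceeded the others by 0.729 points (exact p = 0.444). The difference rested on 2 clusters, at 26.99 and 27.90 Mb. Blood was the highest tissue in both, at 26.99 Mb ahead of ileum only through the cytosine 26989353. Without both clusters, a set chosen after the data were seen, blood and ileum were 0.376 points below the others (difference -0.376, exact p = 0.0444). No conclusion is drawn from that p, because the clusters left out were picked on these same levels. Blood exceeded cortex by 4.95 points and ileum exceeded cortex by 1.13 points over the 87 sites. Both depended on the weight of the deeply covered sites and were 9.71 and 7.32 points when sites were weighted by reads. Relative to the rest of the genome, the excess of blood and ileum over the other 8 tissues was then 6.91 points (exact p = 0.133).

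Most clusters were unmethylated in every tissue. Of the 11 clusters of the 9 tissues, 7 with 85 CG sites had means of at most 3.16 % in any tissue, at 25.03, 27.22, 27.28, 27.49, 28.16 and 28.56 Mb and at position 26998173. Of these, 6 were also covered in abomasum, and over the 10 tissues each spanned no more than 2.36 points from the lowest to the highest. Blood and ileum differed from cortex by at most 1.85 points in them. Blood was the lowest of the 9 tissues in 4 of the 7 clusters (at most 0.607 %) and, with the cluster at 27.41 Mb, in 5 of 11, against 3.86 % of the 5858 clusters of the genome, but in those 4 every tissue was at 3.16 % or below. In these 6 clusters, cytosines inside CCGG, where the enzyme cuts, averaged 6.42 % ± 1.20 (SD over 10 tissues, 7 sites), against 0.446 % ± 0.226 at the 49 other sites, and were higher in 10 of 10 tissues. The remaining low level was thus mostly at cut sites. A further 7 clusters were covered in 5 to 8 tissues that included blood and cortex, and 6 of them were low in each tissue (at most 11.1 %), while the cluster at 28.15 Mb had 95.5 % in blood and 97.7 % in cortex and was at least 95.1 % in all 5 tissues that covered it.

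**Figure D2:**
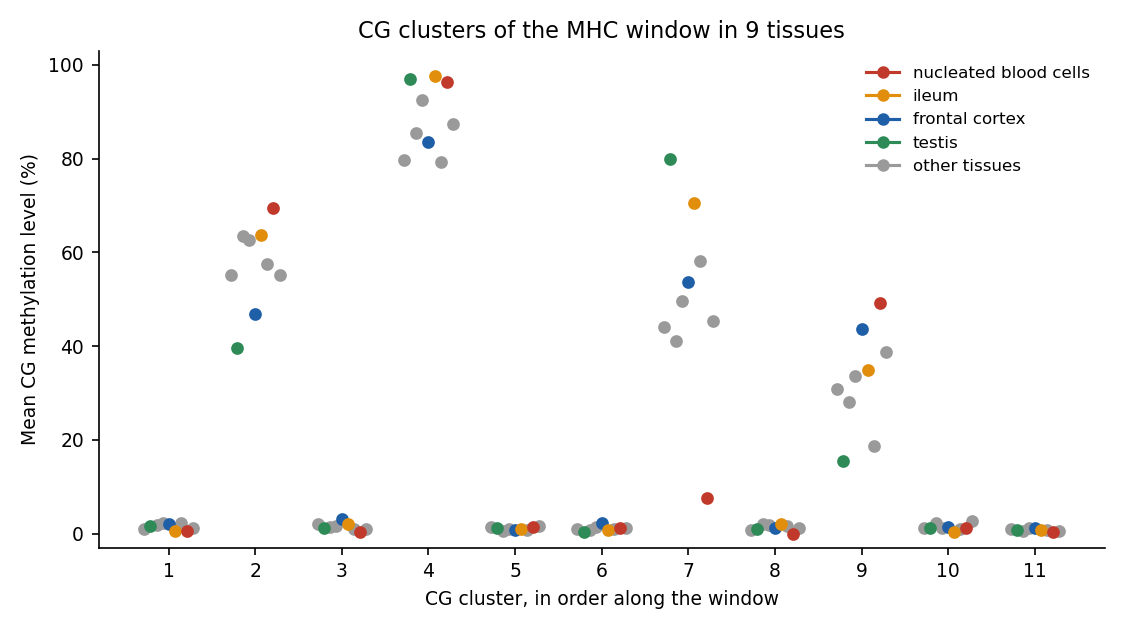
Mean CG methylation level (%, y axis) of the 11 clusters covered in the 9 tissues other than abomasum, in order along the window (x axis), with 1 point per tissue. Clusters 2, 7 and 9 (at 26.99, 27.41 and 27.90 Mb) spread over at least 25 points, cluster 4 (27.03 Mb) lies at 79.3 % or above and the other 7 lie near 0, and blood is at 7.60 % in cluster 7.

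Blood differed most from the other tissues in a cluster of 8 CG cytosines at chr23:27412777-27412822, the first sequence shown above. It was noticed after the data were seen and is not covered in abomasum. Its mean level was 7.60 % in blood, 41.0 % in mammary gland parenchyma, 44.2 % in skeletal muscle, 45.3 % in lactating mammary gland, 49.5 % in uterus, 53.6 % in frontal cortex, 58.2 % in rumen, 70.5 % in ileum and 79.9 % in testis. Blood lay 33.4 points below the next tissue, so its level did not overlap with the rest, while neighbours among the other tissues lay 1.17 to 12.3 points apart. Each of the 8 cytosines was lower in blood than in all 8 other tissues. Ileum, the sample grouped with blood above, lay near the opposite end, below testis only, and was above cortex at 6 of the 8.

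The reads at these sites were few. They ranged from 17 to 48 per site and tissue, and both strands were covered. Their median was 18 in lactating mammary gland and 42 in blood. At 27412796 on the plus strand, the second CG of the fragment, 4 of 48 reads were methylated in blood (8.33 %, 95 % Wilson interval 3.29 to 19.6), against 55.6 % of 27 reads in cortex (37.3 to 72.4) and 76.2 % of 21 reads in ileum (54.9 to 89.4). On the minus strand at 27412797, the other cytosine of that CG, blood had 5.56 % (1.54 to 18.1), cortex 44.7 % (30.1 to 60.3) and ileum 74.2 % (56.8 to 86.3). The strands gave the same order. These intervals, and all others here, cover counting error only, since PCR copies were not marked and 1 library stands for each tissue.

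Differentially methylated cytosines (DMCs) were sites where the reads of a pair of libraries differed by Fisher's exact test, with a false discovery rate (Benjamini-Hochberg over the genome) below 0.01 and at least 25 points. In the cluster at 27.41 Mb, 6 of the 8 cytosines were DMCs lower in blood than in cortex (adjusted p from 1.44e-06 to 0.0069). Against ileum, 7 of 8 were DMCs lower in blood (adjusted p from 3.43e-08 to 0.000944). Blood was also lower at 8 of 8 against testis (0.599 % of CG sites in the genome), 6 against rumen (0.399 %), 3 against skeletal muscle (0.476 %), 3 against uterus (0.117 %), 2 against mammary gland parenchyma (0.309 %) and 2 against lactating mammary gland (0.6 %). Reads span several of the cytosines, so these are not 8 independent tests. Over the 132 sites of the window, the 6 were the only DMCs lower in blood than in cortex and the 7 the only ones lower than in ileum, where the background over the genome was 0.584 % and 0.268 % of CG sites. Over the genome, blood was the lowest tissue by at least 25 points in 12 of 5858 clusters (0.205 %). No site of the cluster was a DMC between ileum and cortex (1.44 % of CG sites in the genome).

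**Figure D3:**
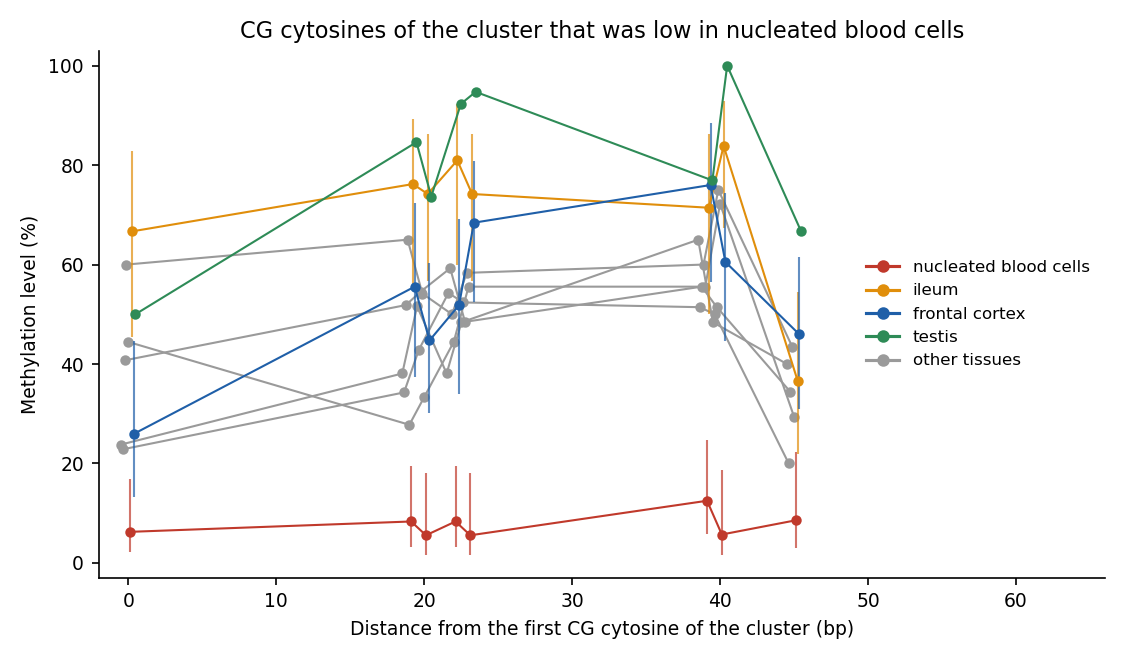
Methylation level (%, y axis) of the 8 CG cytosines of the cluster at 27.41 Mb by distance from the first (bp, x axis), with a line per tissue (9 tissues, 1 library each) and 95 % Wilson intervals for blood, ileum and cortex. Blood lies between 5.56 and 12.5 % at all 8 cytosines, below every other tissue.

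Tissues were graded in the cluster of 15 CG cytosines at chr23:27901050-27901082 that was covered in all 10 tissues. Its mean level was 15.9 % in testis, 20.3 % in rumen, 30.8 % in mammary gland parenchyma, 33.8 % in skeletal muscle, 36.7 % in uterus, 37.2 % in abomasum, 38.6 % in ileum, 42.8 % in lactating mammary gland, 46.9 % in frontal cortex and 54.5 % in blood. Here blood was highest, and ileum lay below cortex. Of the 15 sites, 11 were DMCs, as defined above, in at least 1 of the 45 pairs (19.8 % of CG sites in the genome). Blood exceeded testis by the DMC criteria at 10 of them (9.63 % in the genome) and rumen at 5 (2.93 %), but not cortex or ileum at any. Cortex exceeded testis at 7 sites (2.69 %) and rumen at 1 (0.479 %).

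The level also changed along this fragment. The sequence holds CGCG 3 times, and the first, 18 bases from the fragment's start as printed, was low: its cytosines averaged 10.5 % (27901050) and 15.0 % (27901052) on the plus strand over the 10 tissues. In the second CGCG the plus-strand means were 55.2 % (27901059) and 39.9 % (27901061). In the third they were 56.2 % (27901072) and 40.6 % (27901074). The minus strand showed the same steps, with 13.6 and 11.0 % in the first, 50.7 and 36.0 % in the second and 52.2 and 28.9 % in the third. The CG sites of one short fragment therefore differed from each other by about as much as the tissues did. Reads per site ran from 9 in abomasum to 74 in testis here, with medians of 13 in abomasum and 73 in testis.

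**Figure D4:**
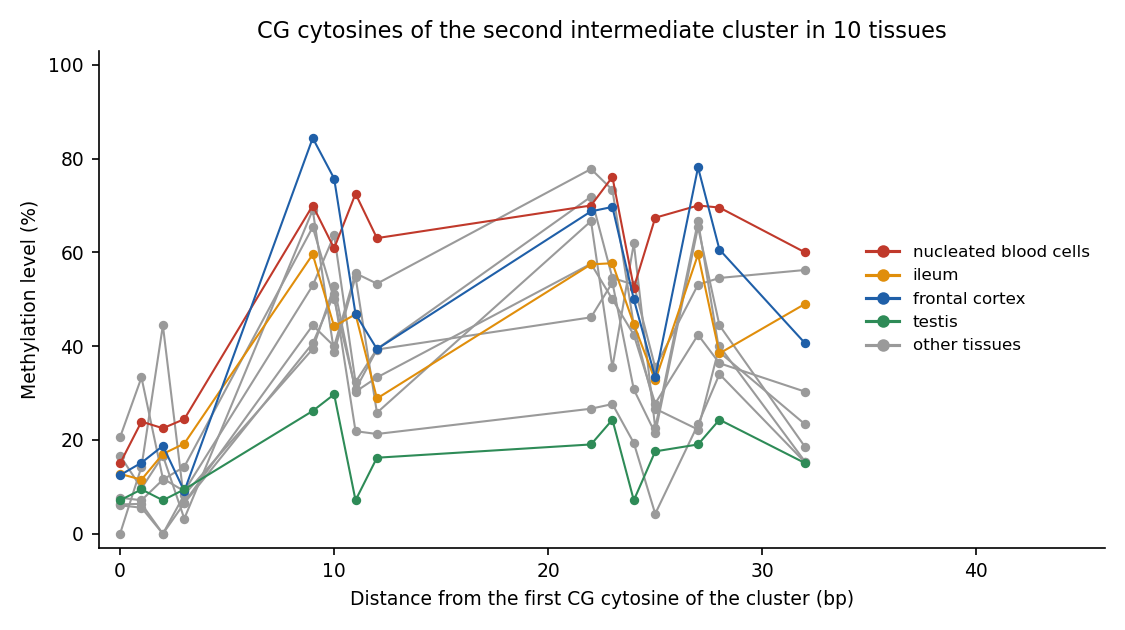
Methylation level (%, y axis) of the 15 CG cytosines of the cluster at 27.90 Mb by distance from the first (bp, x axis), with a line per tissue (10 tissues, 1 library each). The means over tissues are 10.5 to 15.0 % at the first 4 cytosines, where abomasum reaches 44.4 % (9 reads) and lactating mammary gland 33.3 % at 1 cytosine each, and blood has 54.5 % and testis 15.9 % over the 15.

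The other graded cluster, of 15 CG cytosines at chr23:26989236-26989399, was the only one that held DMCs of blood or ileum with cortex among the sites covered in all 10 tissues. Its mean level was 39.6 % in testis, 46.8 % in frontal cortex, 55.1 % in skeletal muscle, 55.2 % in lactating mammary gland, 57.5 % in rumen, 58.3 % in abomasum, 62.6 % in uterus, 63.5 % in mammary gland parenchyma, 63.8 % in ileum and 69.4 % in blood. Testis and cortex were lowest and blood and ileum highest, with no gap between neighbours above 8.32 points. Blood was above ileum at only 7 of the 15 cytosines. Its higher mean than ileum came from 26989353, where blood had 100 % and ileum 5.03 %. Blood exceeded cortex at 15 of 15 cytosines and ileum exceeded cortex at 13. Reads span several of the cytosines and some are the 2 strands of 1 CG, so these counts are not independent. In the rest of the genome blood (32.5 %) and ileum (30.5 %) also averaged above cortex (27.5 %), and the share of such sites there was not counted.

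Coverage of this cluster was very uneven. It held all 5 of the 87 shared CG sites that had more than 300 reads in a tissue, with up to 1390 reads, whereas no shared CG site outside the cluster exceeded 74. All 9 sites with at least 20 reads in every tissue lay in it. The DMCs higher in blood than in cortex were 26989357 (74.3 % of 948 reads, 71.4 to 76.9, against 45.3 % of 1128, 42.4 to 48.2) and 26989353. Those higher in ileum than in cortex were 26989239 (59.0 % of 117 reads against 13.3 % of 30), 26989370 (57.1 % of 126 against 30.5 % of 226) and 26989389 (69.9 % of 83 against 35.7 % of 213). None of these 3 was a DMC between blood and cortex, although blood was also above cortex at each.

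At 26989353, inside a CCGG, the tissues differed more than anywhere else in the cluster and in opposite directions. Its level was 100 % of 183 reads in blood (Wilson interval 97.9 to 100) and of 18 reads in lactating mammary gland, 69.5 % of 262 reads in rumen, 33.5 % of 400 reads in cortex (29.1 to 38.3) and 5.03 % of 457 reads in ileum (3.38 to 7.44). The same CG on the minus strand (26989354) was between 1.74 and 13.3 % in all 10 tissues. The strands of this CG thus differed by 40.1 points on average, against 4.24 points at the next CG (26989357 and 26989358). At 26989369 the plus strand was above the minus strand in 10 of 10 tissues (66.1 % against 43.8 %). Among the 24 CG of the window read on both strands in every tissue, the 12 methylated ones differed between strands by a median of 10.0 points. What part the cut site, the uneven coverage, a sequence variant in these animals or reads that do not map uniquely had in these levels was not tested.

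**Figure D5:**
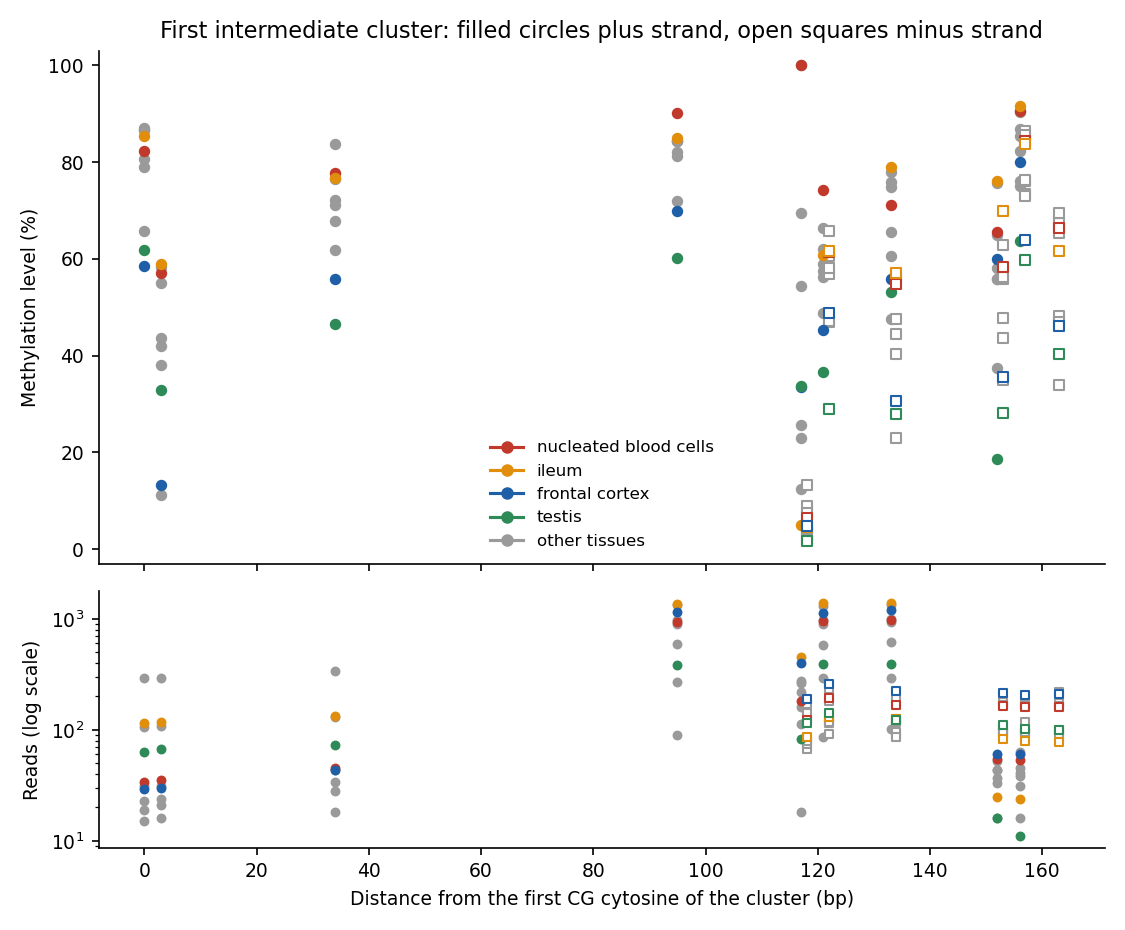
Methylation level (%, upper y axis) and number of reads (log scale, lower y axis) of the 15 CG cytosines of the cluster at 26.99 Mb by distance from the first (bp, x axis), with 1 point per tissue (10 tissues, 1 library each), circles for the plus strand and squares for the minus strand. At 1 cytosine of the plus strand blood is at 100 % and ileum at 5.03 %, and reads run from 11 to 1390 along the cluster.

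DMC calls over the window are given beside their share in the genome, with no test of the difference. At the 87 shared CG sites, 2 (2.30 %) were DMCs of blood with cortex, both higher in blood (4 % of CG sites in the genome, 3.4 % higher and 0.594 % lower in blood). There were 4 (4.60 %) of ileum with cortex, 3 higher and 1 lower in ileum (1.72 % in the genome, 1.41 % higher and 0.311 % lower). Blood and ileum differed at 1 site, or 1.15 % (0.817 % in the genome). No site was a DMC of both blood and ileum with cortex in the same direction (1.2 % in the genome), and none set a single tissue apart in all 9 of its pairs (0.802 %). In any of the 45 pairs 23 of 87 (26.4 %) were DMCs (19.8 % in the genome), all of them among the 24 sites with a mean level from 20 to 80 %, of which they were 95.8 % (69.6 % in the genome). Over the 9 pairs of a tissue, blood had 34 calls, all higher in blood, in 4.34 % of its tests (2.8 % in the genome, with 0.442 % lower). Testis had 64, of which 63 were lower, in 8.05 % of its tests (5.24 % in the genome, with 0.59 % higher). Blood and testis differed at 17 of the 87 sites, or 19.5 % (10.2 % in the genome). Of the 8 clusters of all 10 tissues 2 varied, against 25.3 % of 4373 in the genome, and of the 11 clusters of 9 tissues 3 varied, against 24 % of 5858.

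The 2 varying clusters of all 10 tissues lay in the 2 islands of the study's list of CG islands with methylation differences among these tissues that fall in the window, which the study chose on these samples. Over all the sites each tissue covered in them, the island at chr23:26989206-26989431 averaged 59.2 % ± 8.38 (SD over 10 tissues) and the island at chr23:27900466-27901216 30.9 % ± 10.6. Blood was highest in both. Blood was the highest of 9 tissues in 35.2 % of clusters of the genome.

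One cluster was methylated in all 9 tissues, with 6 CG cytosines at chr23:27025252-27025297. Its level was 97.7 % in ileum, 96.9 % in testis, 96.4 % in blood, 92.4 % in uterus, 87.4 % in lactating mammary gland, 85.5 % in parenchyma of the mammary gland, 83.6 % in cortex, 79.7 % in skeletal muscle and 79.3 % in rumen. Blood and ileum lay above cortex at 6 of 6 cytosines, by 12.8 and 14.1 points on average. No site was a DMC in these pairs (3.48 and 1.44 % of CG sites in the genome). Nothing is drawn from this, because a DMC needs at least 25 points and reads were few. Median reads were 45.5 in blood, 15.5 in ileum and 22 in cortex. These cytosines are not independent either, and both tissues also averaged above cortex in the rest of the genome.

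Cytosines outside CG were nearly unmethylated, with a mean of 2.27 % over the 148 sites covered in all 10 tissues. There were 4 with at least 20 % in any tissue. At 27219374 the level was 83.3 % in abomasum and 98.2 to 100 % in the other tissues. It is the last base before a CCGG, in a fragment whose CG sites averaged 1.08 %. At 28505045 the level ran from 55.6 % in testis to 100 % in mammary gland parenchyma, with 92.3 % in blood and 76.9 % in cortex. The remaining ones, 26989394 and 26989396, were in the unevenly covered cluster, and 26989396, the last base before a CCGG, ranged from 12.1 % in cortex to 81.9 % in abomasum. Of the 148 sites 3 (2.03 %) were DMCs in any pair (0.551 % in the genome), all among these 4. Whether the reference base differs in these animals was not tested.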

How the data were processed

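After trimming, the authors mapped reads to UMD3.1 (per the labels and methods) using a modified SOAPaligner pipeline, and cytosines with at least 8 reads were kept. They deposited for each cytosine its reads as a count, not normalized, its methylation level as a fraction of those reads, and 5 bases of sequence. A further count and a p-value with its FDR, also deposited by the authors, were not used. Methylated reads were recovered as level times reads. Levels were averaged over sites without weighting. DMCs were called with Fisher's exact test for each pair of libraries and Benjamini-Hochberg adjustment over all cytosines of the genome covered in all 10 tissues (or in the 9 other than abomasum). These tests compare libraries, not tissues. Island positions came from the study's list. The members, clusters and lists were chosen with earlier results of these data known. The rule for named sites took all clusters, the listed islands, DMCs shared by blood and ileum against cortex, DMCs of a tissue in all 9 pairs, and non-CG sites of at least 20 %, while the cluster at 27.41 Mb came from the added 9-tissue set. Sequences were joined from overlapping deposited bases, with no clash. The software was Numba 0.67.0, SciPy 1.17.1, matplotlib 3.10.9, pandas 2.3.3 and NumPy 2.4.6 under Python 3.11.15, and the calling was tested on simulated data. Alternatives were minimums of 10 and 20 reads, weighting by reads, joined strands, other site sets, windows and gaps, and a difference of 40 points.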

Additional observations from a re-analysis of the deposited data

How the results depend on the processing

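Depth and the small number of shared sites limit these values. Only 9 of the 87 sites had at least 20 reads in every tissue, all of them in the cluster at 26.99 Mb, so that minimum in effect replaces the window by this cluster: the window level became 54.0 %, its difference from the genome 0.883 points (exact p = 0.590), blood and ileum minus the others 11.1 (exact p = 0.0444) and relative to the genome 5.35 points (p = 0.178), blood minus cortex 18.5 and ileum minus cortex 18.0 points, the share of sites below 20 % 11.1 % and above 80 % 12.2 %, and the non-CG level 0.740 %. DMCs were then 1 for blood with cortex, 2 for ileum with cortex, 0 for blood with ileum (1 at the usual minimum) and 8 in any pair. The count in any pair takes CG and non-CG sites together and was 26 at the usual minimum. Shares in the genome at this minimum are not given here. Weighting by reads, which also favours that cluster, gave a window level of 38.8 %, a difference from the genome of -7.49 points, blood minus cortex 9.71, ileum minus cortex 7.32 points and a non-CG level of 1.63 %. The window level was 21.2 % in the inner 3 Mb of the window, with 64.9 % of sites below 20 % and a difference from the genome of -7.63 points, and 1.17 % as a median over sites. The difference from the genome was -6.62 points against the rest of chromosome 23 and, in sets added after the data were seen, -20.4 without the cluster at 26.99 Mb, -16.0 without that at 27.90 Mb and -27.6 without both.

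The difference of blood and ileum from the other tissues was 9.44 points weighted by reads (exact p = 0.267), 5.50 in the inner 3 Mb (p = 0.0444), 3.48 with strands summed (p = 0.0889), 2.58 with each tissue's own sites (p = 0.356), 3.84 without the 1 % most covered sites (p = 0.0889), -1.47 as a median over sites (p = 0.267), and, in sets added after the data were seen, 2.35 at sites of the 9 tissues (p = 0.111), 2.52 without the cluster at 26.99 Mb (p = 0.178), 2.15 without that at 27.90 Mb (p = 0.133) and -0.376 without both (p = 0.0444). It was 3.31 without testis and 4.28 without abomasum (exact p = 0.0556 for each) and 2.20 without blood and 6.02 without ileum (exact p = 0.222 for each), which are the smallest p those choices of tissues allow. Relative to the genome it was 6.91 weighted by reads (exact p = 0.133), 2.11 in the inner 3 Mb (p = 0.222), 1.63 without ileum (p = 0.444), -0.0460 with strands summed (p = 0.978) and -0.171 without blood (p = 1).

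Blood minus cortex was 1.10 points at the 229 sites covered in both. The share above 80 % was 5.54 % with strands summed and 9.72 % over each tissue's own sites. The non-CG level was 2.78 % with at least 10 reads and 1.43 % over own sites. With at least 40 points, DMCs were 1 for blood with cortex, 1 for ileum with cortex and 17 in any pair. With strands summed 2 were called for blood with ileum. At the 132 CG sites of the 9 tissues there were 8 for blood with cortex (3.48 % of CG sites in the genome). For blood with ileum there were also 8 (0.644 %). At CG sites covered in both tissues of the pair there were 7 of 229 (2.47 % in the genome) and 8 of 156 (0.551 %). The counts rose because the cluster at 27.41 Mb enters. That cluster's level in blood stayed between 7.60 and 7.78 % with at least 10 reads, weighted by reads, with strands summed and without cytosines inside CCGG, and in cortex between 49.9 and 59.5 %. The causes of the other changes were not tested. Apart from the comparison of the window with the genome within each tissue, no paired analysis was possible because each tissue has 1 library.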
